A study of Mus musculus with 2 samples.

Results

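The miR-23, miR-27 and miR-24 microRNAs are encoded in 2 paralogous clusters, Mir23a, Mir27a and Mir24-2 on chromosome 8 and Mir23b, Mir27b and Mir24-1 on chromosome 13. These 6 genes are described here, of 2202 miRNA genes measured. They were chosen by symbol in GENCODE M21, with earlier results of these data known, and all 6 were found. The libraries were microRNA-seq, which sequences small RNA, from the adrenal gland of 14-day-old male B6CASTF1/J mice, an F1 hybrid. The study has 1 group of 2 libraries, biological replicates 1 and 2, with no treatment named in the labels and no contrast between conditions. Each biosample label names 3 males and both share 1 donor record, so it is not known here whether a library pools animals, and the spread between the libraries may in part be technical.

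Each cluster is transcribed as 1 primary RNA, from which Drosha and then Dicer cut the hairpins and the mature miRNAs. A mature miRNA finds its messenger RNA targets mainly through its seed, bases 2 to 8 from its 5′ end. The clusters are known for roles in endothelial cells, in muscle and in lipid metabolism. The cortex of the adrenal gland makes steroid hormones and its medulla makes catecholamines. There miR-24 is reported to act on the synthesis of aldosterone and cortisol.

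The mature sequences, from RefSeq on GRCm38.p6, are shown because the way they are shared between the clusters bears on which reads could be counted. The seed is in capitals. The first 2 lines after miR-23a-3p show paralogs that share 1 seed and differ at a single base, and the last 3 show the miR-24 arms.

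miR-23a-3p: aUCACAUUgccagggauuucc

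miR-27a-3p: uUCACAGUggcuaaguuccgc

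miR-27b-3p: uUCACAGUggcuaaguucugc

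miR-24-3p: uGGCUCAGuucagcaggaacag

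miR-24-1-5p: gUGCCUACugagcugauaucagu

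miR-24-2-5p: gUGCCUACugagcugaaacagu

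Between miR-27a-3p and miR-27b-3p the substitution was C19U, counted from the 5′ end of miR-27a-3p. The sequence of miR-24-3p stood in 2 measured hairpins, Mir24-2 and Mir24-1, whereas each of the other mature sequences printed stood in 1. The miR-24-1-5p and miR-24-2-5p arms have their first 16 bases in common and then differ. RefSeq entries were matched for 6 of the 6 hairpins, with the same coordinates and sequence as in GENCODE M21. miR-23b-3p is named only.

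The hairpins of the miR-23 and miR-24 pairs show how far each pair can be told apart, with the longest stretch shared by both members in capitals.

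Mir23a, chr8:84208518-84208592, plus strand: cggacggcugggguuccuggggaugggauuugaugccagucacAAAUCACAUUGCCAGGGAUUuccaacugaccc

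Mir23b, chr13:63300484-63300557, plus strand: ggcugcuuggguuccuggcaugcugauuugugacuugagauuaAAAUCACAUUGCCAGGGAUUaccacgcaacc

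Mir24-2, chr8:84208815-84208921, plus strand: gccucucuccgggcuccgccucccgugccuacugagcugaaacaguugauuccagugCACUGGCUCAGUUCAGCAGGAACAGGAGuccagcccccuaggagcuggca

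Mir24-1, chr13:63301208-63301275, plus strand: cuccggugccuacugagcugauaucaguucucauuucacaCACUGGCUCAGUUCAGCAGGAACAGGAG

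The shared stretch was 20 bases long in the miR-23 pair and also 20 in the miR-27 pair. In the miR-24 pair it was 28 bases long and held the whole of miR-24-3p. Of the 20-base stretches that can be read from a hairpin, 1 of 56 in Mir23a and 1 of 55 in Mir23b also stood in another measured hairpin. The same held for 1 of 68 in Mir27a and 1 of 54 in Mir27b, but for 9 of 88 in Mir24-2 and 9 of 49 in Mir24-1. In each case the other hairpin was the paralog. At 22 bases, the length of miR-24-3p, the Mir23 and Mir27 hairpins had no shared stretch and the Mir24 hairpins each had 7.

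**Figure D1:**
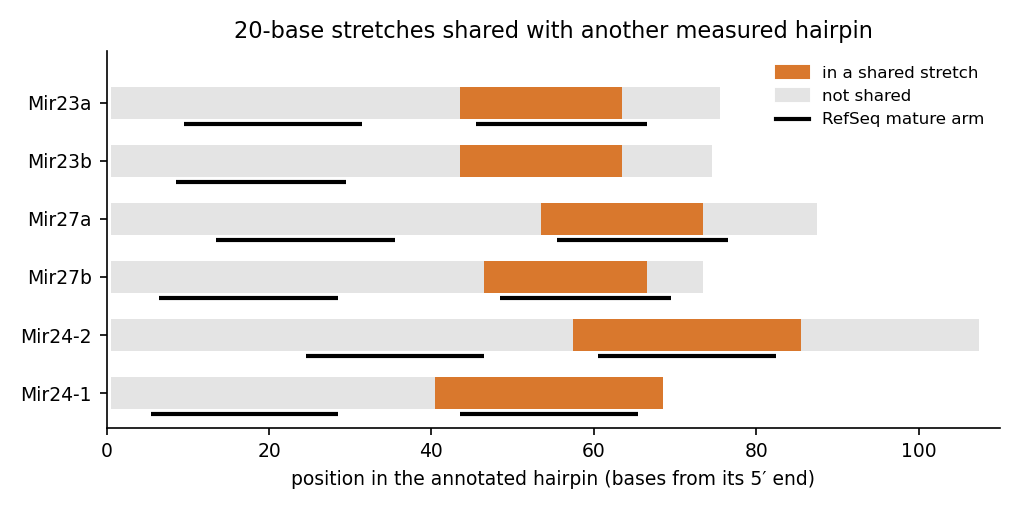
Position along each annotated hairpin in bases (x axis) for the 6 genes, with bases inside a 20-base stretch that also stands in another measured hairpin in orange and the arms listed in RefSeq as black lines. In Mir24-2 and Mir24-1 the shared stretch covers the whole of the 3p arm, whereas in Mir23a, Mir27a and Mir27b it stops short of the end of that arm.

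On mm10 the chromosome 8 genes lie on the plus strand within 404 bases, Mir23a at 84208518 to 84208592, Mir27a at 84208672 to 84208758 and Mir24-2 at 84208815 to 84208921. Mir23a and Mir27a overlap no other annotated gene. Mir24-2 shares its last 2 bases with an exon of the long non-coding RNA Gm26532, and Mir3074-2 lies opposite it on the minus strand. The chromosome 13 genes lie on the plus strand within 792 bases, Mir23b at 63300484 to 63300557, Mir27b at 63300712 to 63300784 and Mir24-1 at 63301208 to 63301275. They lie inside the protein-coding gene 2010111I01Rik on the same strand. Mir23b was intronic in all 9 transcripts that span it. Mir27b overlapped an exon in 1 of 9 transcripts and Mir24-1 in 4 of 11. Fancc, a Fanconi anaemia gene, runs through the locus on the minus strand with no exon there, and Mir3074-1 lies opposite Mir24-1.

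**Figure D2:**
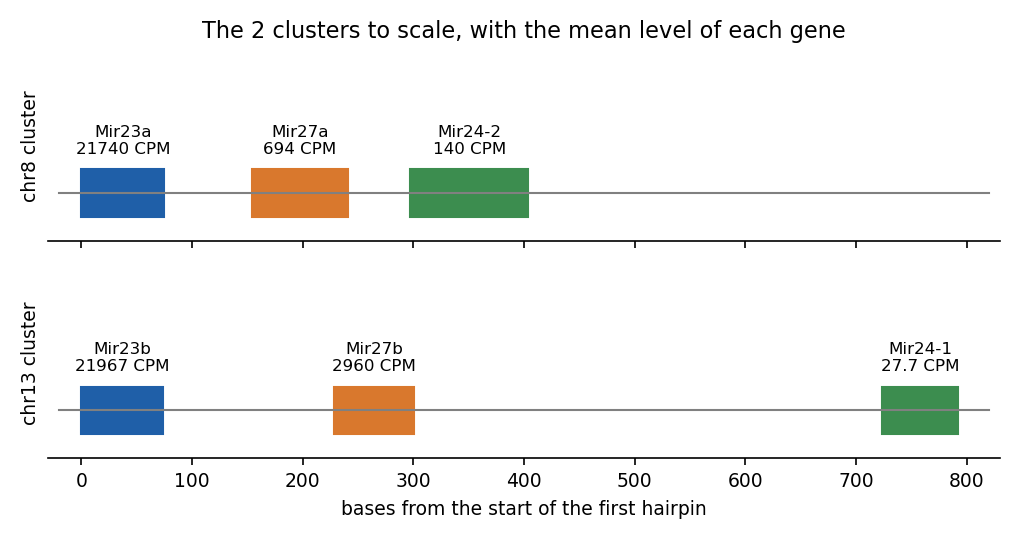
Hairpins of both clusters drawn to scale by their distance in bases from the start of the first hairpin (x axis), each with its mean level in CPM over the 2 libraries. The gene order is the same in both clusters, and the gap before the miR-24 hairpin is 56 bases on chromosome 8 and 423 bases on chromosome 13.

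The libraries held 3024662 and 3464837 counts on the strand of the miRNA genes in replicates 1 and 2. Levels are CPM, counts per 1000000 of these, so 1 count was worth 0.331 and 0.289 CPM. Values are means ± SD with n = 2 unless a library is named, and intervals are exact at 95% and reflect only counting error. They take each read as a separate molecule, so where reads are PCR copies they are too narrow. Levels were not tested, since the smallest p of a two-sided exact sign-flip test is 0.5 for 2 libraries. The libraries differed widely in Mir122, the main miRNA of hepatocytes, which was at 3786 CPM in replicate 1 and 49474 in replicate 2. Mir126a, the miRNA of endothelial cells, was at 155646 and 94732 CPM. In bulk tissue, fewer cells of a type and less RNA per cell cannot be told apart. The neuroendocrine Mir375 was at 26615 and 29592 CPM.

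Together the 6 genes held 4.08% of miRNA counts in replicate 1 (interval 4.06 to 4.10) and 5.43% in replicate 2 (interval 5.40 to 5.45), a mean of 4.75% ± 0.952. The Mir23 genes made up 92.8% of this in replicate 1 and 91.3% in replicate 2. These shares and the sums below count only reads placed at 1 locus. Reads of miR-24-3p alone, which match both Mir24 hairpins, are left out. The chromosome 8 cluster summed to 19271 and 25878 CPM and the chromosome 13 cluster to 21529 and 28379 CPM. The chromosome 13 sum was the higher in both libraries, with means of 24954 ± 4844 and 22574 ± 4672 CPM. Over the 4 Mir23 and Mir27 genes alone, the chromosome 8 genes gave 47.1% of counts in replicate 1 (interval 46.9 to 47.4) and 47.5% in replicate 2 (interval 47.3 to 47.8), below an even split by more than counting error in each.

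The miR-23 genes were the most abundant of the 6. Mir23b was at 19151 CPM in replicate 1 and 24782 CPM in replicate 2, from 57926 and 85865 counts. Mir23a was at 18705 and 24775 CPM, from 56577 and 85843 counts. Both paralogs were thus nearly level within each library and higher in replicate 2. Their means of 21967 ± 3981 and 21740 ± 4292 CPM held the 13th and 14th places of all miRNA genes. In the single libraries Mir23b was 11th and 12th and Mir23a 13th in both. Mir122 ranked above both by mean but was higher than them in replicate 2 only. Mir23a gave 49.4% of the pair in replicate 1 (interval 49.1 to 49.7) and 49.99% in replicate 2 (interval 49.8 to 50.2). The share in replicate 1 was below an even split by more than counting error, and in replicate 2 an even split was within the interval. Over both libraries the share was 49.7% ± 0.412. A read that lies within the 20-base stretch shared by the pair matches both hairpins, so these counts may leave out reads. The intervals do not cover errors of read placement.

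The miR-27 genes, whose 3p arms share the seed UCACAGU, were lower and unequal. Mir27b was at 2353 and 3567 CPM in replicates 1 and 2. Mir27a was at 474 and 914 CPM. The libraries of the pair did not overlap, with every Mir27b value above every Mir27a value. The means were 2960 ± 858 and 694 ± 311 CPM, in the 42nd and 100th places. Mir27a gave 16.8% of the pair in replicate 1 (16.0 to 17.6) and 20.4% in replicate 2 (19.77 to 21.04), a mean of 18.6% ± 2.57. Mir27b exceeded Mir27a by 4.96-fold and 3.90-fold in counts, and by 5.92-fold and 4.65-fold per 100 bases of annotated hairpin. The miR-27 pair also shares a 20-base stretch, so these counts too may leave out reads.

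The miR-24 genes had the lowest assigned counts of each cluster. Mir24-2 was at 91.2 CPM in replicate 1 and 188 CPM in replicate 2, from 276 and 653 counts. Mir24-1 was at 24.8 and 30.6 CPM, from 75 and 106 counts. The order of this pair was the opposite of that of the miR-27 pair, with the chromosome 8 gene higher in both libraries. The means were 140 ± 68.7 and 27.7 ± 4.10 CPM, in the 175th and 252nd places. Mir24-2 gave 78.6% of the pair in replicate 1 (74.0 to 82.8) and 86.0% in replicate 2 (83.4 to 88.4), a mean of 82.3% ± 5.23. These values count only reads that were placed at 1 locus. No gene holds the reads that mapped to several places, of which there were 1972020 and 2497097, and a read of miR-24-3p alone matches both hairpins printed above. How many of them were miR-24-3p was not analysed here, so the level of mature miR-24 cannot be read from these counts. The files also do not separate the arms of a hairpin.

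**Figure D3:**
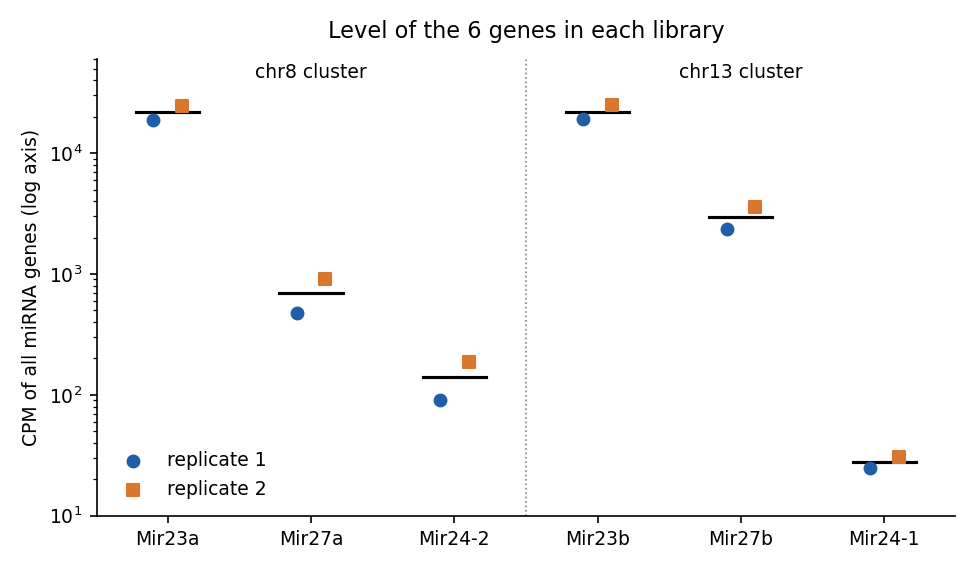
Level of each gene in CPM on a log axis (y axis) for replicate 1 (circles) and replicate 2 (squares), with the mean as a bar, grouped by cluster. Within each cluster the level by assigned counts falls from the miR-23 gene to the miR-24 gene. The Mir24 values leave out reads placed at both Mir24 loci. Replicate 2 lies above replicate 1 for all 6 genes.

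**Figure D4:**
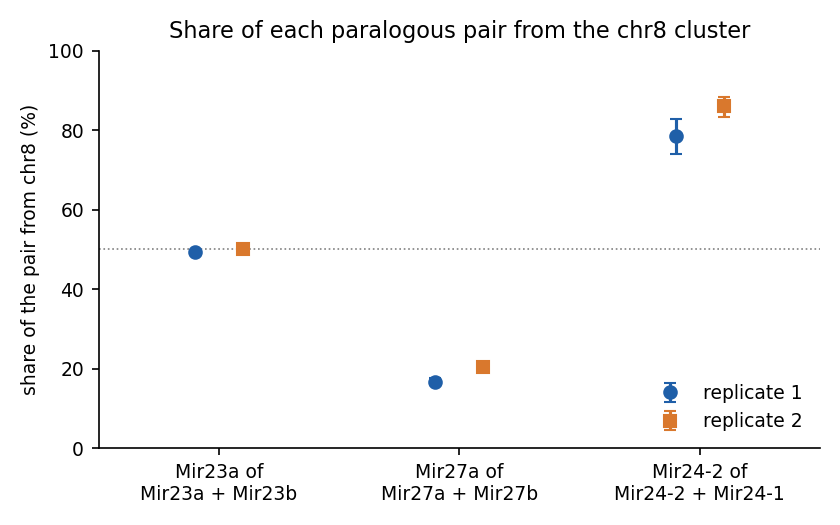
Share of each paralogous pair's counts that came from the chromosome 8 gene, in percent (y axis), per library with exact 95% intervals for counting error. The miR-23 pair lies near the dotted line at 50%, the miR-27 pair between 16.8% and 20.4%, and the miR-24 pair between 78.6% and 86.0%.

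The places of the Mir24 genes in this paragraph rest on counts that leave out reads placed at both Mir24 loci. By assigned counts the order of the 6 levels was Mir23b, Mir23a, Mir27b, Mir27a, Mir24-2 and Mir24-1 in both libraries. It was the same per 100 bases of hairpin, where the means were 29685 ± 5380, 28987 ± 5723, 4055 ± 1176, 798 ± 358, 131 ± 64.2 and 40.7 ± 6.03 CPM. Mir23b and Mir23a did not differ beyond their spread, whereas the libraries of every other neighbouring pair in this order did not overlap. In the wider order of all miRNA genes, Mir122 stood above Mir23b at 26630 ± 32307 CPM and within its spread. Mirlet7d stood below Mir23a at 17874 ± 1135 CPM and was lower than it in both libraries. Mir27b lay between Mirlet7f-2 and Mir28a, and Mir27a between Mirlet7c-2 and Mir542. Mir24-2 lay between Mir350 and Mir340, and Mir24-1 between Mir294 and Mir3099. The means of these 8 neighbours differed from those of their members by less than the larger SD of each pair, although Mirlet7f-2 was above Mir27b in both libraries.

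Steps within a cluster were of unequal size. Per length, Mir23a exceeded Mir27a by 45.8-fold in replicate 1 and 31.4-fold in replicate 2, and Mir23b exceeded Mir27b by 8.03-fold and 6.85-fold. In counts, without division by length, these folds were 39.5 and 27.1 on chromosome 8 and 8.14 and 6.95 on chromosome 13. The step from the miR-23 to the miR-27 gene was therefore larger on chromosome 8 in both libraries. From the miR-27 to the miR-24 gene, the step per length was 6.39-fold and 5.96-fold on chromosome 8 and 88.4-fold and 109-fold on chromosome 13. In counts it was 5.20-fold and 4.85-fold on chromosome 8 and 94.9-fold and 117-fold on chromosome 13. These last steps rest on counts that leave out reads placed at both Mir24 loci. Within its cluster Mir23a held 97.1% and 95.7% of the counts, and Mir23b 89.0% and 87.3%.

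In sum over their members, the paralogous miR-17~92 and miR-106b~25 clusters were lower, at 10118 ± 1420 and 7921 ± 82.9 CPM. Mir19b-1 and Mir92-1 of miR-17~92 share a 20-base stretch with another measured hairpin, so the first sum too may leave out reads. Unequal levels within a cluster were also seen there. Per length, Mir17 exceeded Mir19a by 3697-fold in replicate 1 and 1553-fold in replicate 2 within miR-17~92, where Mir19a had 5 and 10 counts. Mir93 exceeded Mir25 by 11.7-fold and 10.7-fold within miR-106b~25. The matching values were 292-fold and 188-fold for Mir23a over Mir24-2 and 710-fold and 744-fold for Mir23b over Mir24-1. Folds over a Mir24 gene, here and below, rest on counts that leave out reads placed at both Mir24 loci. They therefore do not give the fold over mature miR-24. In counts the folds were 3787 and 1591 within miR-17~92 and 12.2 and 11.2 within miR-106b~25. They were 205 and 131 for Mir23a over Mir24-2 and 772 and 810 for Mir23b over Mir24-1.

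All 6 genes had a higher level in replicate 2, and 5 of the 6 passed an exact binomial test of the 2 libraries. That test, with Benjamini-Hochberg adjustment at 0.05 over 413 genes with 10 or more counts, compares those libraries and not conditions. By the same test 28.8% of tested genes were higher in replicate 2, 119 of 413, and 26.6% were lower, 110 of 413. In either direction 55.4% passed. In the deposited column that ignores strand, which leaves out reads over genes on both strands, the split was 74 higher and 139 lower. Among the 189 genes of 100 CPM or more, 43.9% were higher. The median log2 ratio of replicate 2 to replicate 1 was 0.50 over the 6 members, 0.03 over all tested genes and 0.0006 over the 189.

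The ratios differed among the members. Mir23a was 1.32-fold higher in replicate 2 (1.31 to 1.34) and Mir23b 1.29-fold (1.28 to 1.31). Mir27b was 1.52-fold higher (1.47 to 1.56) and Mir27a 1.93-fold (1.81 to 2.05). Mir24-2 was 2.07-fold higher (1.79 to 2.39), at an adjusted p of 4.46e-25 in the exact binomial test. Mir24-1, with 75 and 106 counts, did not pass the exact binomial test (ratio 1.23, interval 0.909 to 1.68, adjusted p = 0.262). The fold of Mir23a over Mir27a changed between the libraries by more than counting error, from 39.5 (37.4 to 41.6) to 27.1 (26.2 to 28.1) in counts. That of Mir27a over Mir24-2 was 5.20 (4.56 to 5.93) and 4.85 (4.46 to 5.28), with overlapping intervals.

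The coefficient of variation over the 2 libraries was 18.1% for Mir23b, 19.7% for Mir23a, 29.0% for Mir27b, 44.8% for Mir27a, 49.2% for Mir24-2 and 14.8% for Mir24-1. Its median over the 189 genes of 100 CPM or more was 15.9%. Of these 189 genes, 43 had a higher ratio than Mir23a, 17 than Mir27a and 12 than Mir24-2.

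Markers of other cell types moved between the libraries too. The endothelial list summed to 155649 and 94739 CPM in replicates 1 and 2 (2 of 2 genes detected at 2 CPM or more in both). The erythroid list summed to 43959 and 19202 (3 of 3), the white blood cell list to 3466 and 1710 (4 of 4) and the mesenchymal and smooth muscle list to 53182 and 45535 (4 of 4). These 4 sums were lower in replicate 2, but 1 gene in each of 3 lists was higher there by the exact binomial test. These were Mir126b (endothelial) with a ratio of 2.99, Mir223 (white blood cell) with 2.88 and Mir214 (mesenchymal) with 1.253. The neuroendocrine list, at 31053 and 34207 CPM (3 of 3), and the hepatocyte marker Mir122 were higher. The part of these cells in the ratios of the 6 members was not tested. With Mir122 and Mir126a left out of the total, the ratios were 1.30 for Mir23a, 1.27 for Mir23b, 1.89 for Mir27a, 1.49 for Mir27b, 2.03 for Mir24-2 and 1.21 for Mir24-1.

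**Figure D5:**
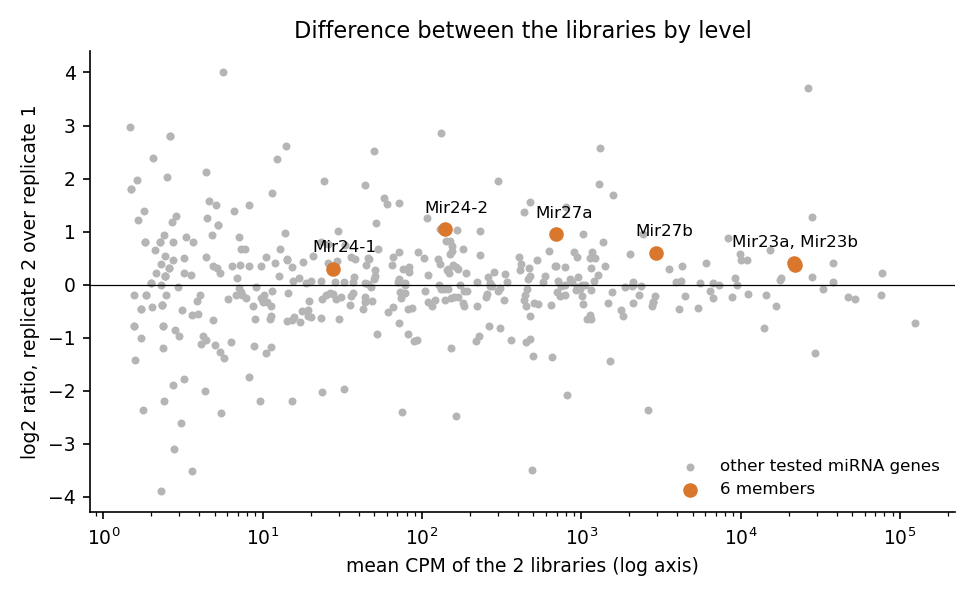
Log2 ratio of replicate 2 to replicate 1 (y axis) against the mean level in CPM on a log axis (x axis), for tested miRNA genes with a count in both libraries (grey) and the 6 members (orange). All 6 members lie above 0, from a ratio of 1.23 for Mir24-1 to 2.07 for Mir24-2, amid genes that lie on both sides.

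Apart from the Mir24 genes, 5 measured genes encode miRNAs reported to act on the enzymes that complete aldosterone or cortisol synthesis. All 5 were detected, and 2 were higher and 2 lower in replicate 2, beside 28.8% and 26.6% of all tested genes. Their median log2 ratio was 0.04, against 0.03 over all tested genes. Mir10b was at 17870 and 10131 CPM in replicates 1 and 2, and Mir320 at 2204 and 1473 CPM. Mir125a was at 1654 and 3191 CPM. Mir10b and Mir320 were lower in replicate 2, while Mir125a and Mir125b-2 were higher. Mir125b-1, at 217 and 223 CPM, did not pass the exact binomial test (adjusted p = 0.674). By assigned counts the 2 Mir24 genes, summing to 116 and 219 CPM, lay below Mir10b, Mir125a and Mir320. Like the Mir24 genes, Mir125b-1 and Mir125b-2 share a 20-base stretch with another measured hairpin, so a read of that stretch alone matches more than 1 hairpin.

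Sharing of a whole arm was not limited to miR-24. Of 1018 measured genes with a mature entry in RefSeq, 92 had an arm identical to an arm of another gene, among them Mir24-1 and Mir24-2, and 49 of the 92 were detected. By mean level Mir24-2 held the 18th and Mir24-1 the 28th place of the 92, which were led by Mirlet7f-2 at 3528 CPM. The median over all 92 was 4.42 CPM, against 0.310 CPM over the 926 genes with no such arm. Over detected genes alone the order was the opposite, with 42.4 CPM for those 49 and 144 CPM for 278. A level of 100 CPM or more was reached by 19.6% of the 92 and 16.6% of the 926.

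The genes most like each member in level, by the summed absolute difference of log2(CPM + 1) over the 2 libraries, were named for the 3 smallest values. For Mir23a the most like gene was Mir23b and the reverse, at a difference of 0.03, followed for both by Mirlet7d and Mir99a. For Mir27a they were Mir369 at 0.30, Mir101b and Mirlet7c-2. For Mir27b they were Mirlet7f-2 at 0.55, Mir351 and Mir125a. For Mir24-2 they were Mir370 at 0.20, Mir483 and Mir329, and for Mir24-1 Mir202 at 0.03, Mir664 and Mir5121. Neither Mir27 paralog was among the 3 genes most like the other, and the same held for the Mir24 paralogs.

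Opposite-strand counts differed among the members. Mir23a, Mir27a, Mir23b and Mir27b had no opposite-strand count in either library, and neither had Mir24-2. Mir24-1 had 78 and 74 opposite-strand counts beside 75 and 106 sense counts, and the former are the sense counts of Mir3074-1. Mir3074-2, opposite Mir24-2, had no sense count. At 3 counts this allows up to 0.992 CPM in replicate 1 and 0.866 in replicate 2, for reads placed at that locus alone. Both Mir3074 genes share a 20-base stretch with another measured hairpin, so their counts do not cover reads of that stretch alone. In the deposited column that ignores strand, Mir24-1 and Mir24-2 are at 0 in both libraries. Its reads over genes on both strands stand in a separate row of ambiguous reads, which is 0 in the sense column.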

How the data were processed

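MicroRNA-seq libraries from 2 biosamples of 1 group were compared as biological replicates. The authors deposited raw read counts per miRNA gene, 1 file per library, on mm10 with GENCODE M21 per the deposited notes. Aligner and counter: not given in the sources used here. Of the 3 count columns the sense column was used. The 4 summary rows, which name no gene, hold the rest of each file and stayed out of totals, so miRNA genes held 42.2% and 40.9% of reads. Multimapping reads were 27.5% and 29.4%.

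Counts were divided by the miRNA total and given as CPM. Intervals are exact Clopper-Pearson or conditional exact intervals. Ratios between the libraries were tested per gene with an exact two-sided binomial test, Benjamini-Hochberg adjusted at 0.05 over all genes with 10 or more counts. The test was run on simulated counts with set fold changes and counting error only. That simulation cannot show how the test behaves with further variation between libraries, because it held none. Hairpins came from GENCODE M21 and mature sequences from RefSeq (GRCm38.p6). All 2202 gene identifiers matched GENCODE M21, 968 matched a RefSeq hairpin by symbol and 1018 had a RefSeq mature sequence. Matches were sought among measured hairpins and not in the genome.

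The members and lists were chosen with earlier results of these data known. Named genes are the 6 members, the gene next above and below each in mean CPM, the 3 most like each, and the members of each list, at most the 4 with the highest mean CPM. Mir125b-2, Mir19a and Mir19b-1 fall outside this and were named after their values were seen. Alternatives were unstranded counts, edgeR's TMM, DESeq2's size factors, other denominators and filters, Bonferroni adjustment, per-length counts, each library alone and stretches of 18 and 22 bases. The versions used were edgeR 4.0.16 and DESeq2 1.42.0 in R 4.3.3, and SciPy 1.17.1, pandas 2.3.3, NumPy 2.4.6 and matplotlib 3.10.9 in Python 3.11.15.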

Additional observations from a re-analysis of the deposited data

Results flagged for a closer look

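Mir3074-1, annotated on the opposite strand of Mir24-1, had 78 sense counts in replicate 1 and 74 in replicate 2, where Mir24-1 had 75 and 106. It was looked at again because these counts lie outside the 6 genes and above the 3 counts that a count of 0 allows, and the study has no control samples to set them beside. Mir3074-1 was at 25.8 and 21.4 CPM, a ratio of 0.828 (0.594 to 1.15), which did not pass the exact binomial test (adjusted p = 0.356). Mir3074-1 shares a 20-base stretch with another measured hairpin, so its counts may leave out reads. A search for outlying samples or for group differences had no basis with 2 libraries in 1 group.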

How the results depend on the processing

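The 6 members held 6.40% of counts in the unstranded column and 1.97% of all reads of the file, against 4.75%. The total of the unstranded column leaves out its ambiguous reads, 902374 in replicate 1 and 794418 in replicate 2. Per base of hairpin, the chromosome 8 share of the miR-24 pair was 74.9% against 82.3%, and that of the 4 Mir23 and Mir27 genes was 46.9% against 47.3%. With stretches of 22 bases, 2 of the 6 hairpins shared one with another measured hairpin, against 6 at 20 bases. Per base of hairpin the shares of the miR-23 and miR-27 pairs were 49.4% and 16.1%, against 49.7% and 18.6%. The unstranded column leaves both as they were, since these genes have the same counts there. Under unstranded counts the Mir24 genes are at 0, so no share of the miR-24 pair and no Mir24 ratio could be had, and 4 of the other 4 members stayed higher in replicate 2, at 1.18-fold to 1.76-fold. That column lowered the median log2 ratio of all tested genes from 0.03 to -0.14. The number of members that passed the test was 4 there and 5 under the other alternatives, and the adjusted p of Mir24-1 in the exact binomial test ranged from 0.262 to 1. Each library alone gave a share for the 6 members of 4.08% or 5.43%. No paired analysis was possible because there is 1 group. Depth limits Mir24-1 most, whose interval for the ratio spans 1.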
